A study of Mus musculus with 67 samples.

Results

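Among the accessible elements of differentiating mouse neural progenitors, 1499 were both broad and distal: their intervals were longer than 3000 bp, and their centers lay more than 2000 bp from the nearest annotated transcription start site (TSS). They were taken from 111638 elements with deposited values, of which 96298 were distal by the same distance. Broad distal elements were therefore 1.56% of distal elements, and they covered 5578331 bp, or 5.90% of the distal bases. Interval length and distance to the TSS chose them, and no normalized count was used. The intervals are merged peaks called on these same libraries, so their length is not independent of accessibility. A further 322 annotated intervals met both criteria but carried no values and were not used here.

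The study asked how graded Sonic hedgehog (Shh) signaling is read out in chromatin. HM1 mouse embryonic stem (ES) cells, a single line, were differentiated to neuromesodermal progenitors (NMPs) and from day 3 to neural progenitors (NPs) with 100 nM retinoic acid (RA) and 0, 10, 100 or 500 nM of the smoothened agonist SAG. Cells were fixed, transposed with Tn5, stained for intracellular transcription factors and sorted (CaTS-ATAC), so that accessibility was read in sorted cells only, and 1 line stands for the mouse neural tube. The 67 libraries fell into 25 conditions, 17 with 3 replicates and 8 with 2, described as independent differentiations.

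All cells received bFGF and LGK from day 0 to day 2, and bFGF, CHIR99021, SB-431542 and DMH1 from day 2 to day 3. The day 3 NMPs (n = 3) had received neither RA nor SAG. NPs were sorted as p0-1 (from 0 and 10 nM SAG), p2 (10 and 100 nM), pMN (100 and 500 nM) and p3 (100 and 500 nM), and libraries of 1 type and day were pooled over SAG. At day 4 the groups held 6 p0-1, 6 p2, 6 pMN and 5 p3 libraries, at day 5 they held 6, 6, 5 and 5, and at day 6 they held 5, 6, 4 and 4. Reads in elements ranged from 9298160 to 29985325 per library, with a median of 20254011. Accessibility is given as normalized counts, the reads in an element divided by a library size factor.

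An accessible element is a stretch of DNA that nucleosomes leave open to the transposase. Most distal elements are short, and the longest ones can hold several neighboring sites of transcription factor binding, as clustered or "super" enhancers and gene-body regions of active genes do. In the ventral neural tube, p0-1, p2, pMN and p3 progenitors are arranged from dorsal to ventral and differ in Pax6, Irx3, Nkx6-1, Olig2, Nkx2-2 and Foxa2. NMPs are the posterior stem-like cells that give rise to spinal cord and trunk mesoderm.

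Sequences of 6 broad distal elements are given from the mm10 genome on the plus strand. The first 5 are the central 300 bases of the element, shown for the largest mean gain over the 4 types after the NMP stage (nearest Spata16, chr3:26640555-26640854), a large loss (Med13l, chr5:118436379-118436678), the largest difference of p3 over pMN at day 6 (Nectin3, chr16:46478741-46479040), the largest difference of pMN over p3 (D230030E09Rik, chr12:118659842-118660141) and the greatest width (Hnrnpa2b1, chr6:51456276-51456575). The sixth is 150 bases of the element downstream of Foxa2 (chr2:148022171-148022320), shown for its GLI letters. The Med13l and Foxa2 stretches were chosen after their values were seen. Capitals mark exact matches to the letters searched, TAATTA for homeodomain factors in Med13l, GTAAACA (the reverse complement of TGTTTAC) for FOX factors in Hnrnpa2b1 and GACCACCCA (that of TGGGTGGTC) for GLI factors in Foxa2. None of the 6 stretches overlapped an annotated exon.
Spata16: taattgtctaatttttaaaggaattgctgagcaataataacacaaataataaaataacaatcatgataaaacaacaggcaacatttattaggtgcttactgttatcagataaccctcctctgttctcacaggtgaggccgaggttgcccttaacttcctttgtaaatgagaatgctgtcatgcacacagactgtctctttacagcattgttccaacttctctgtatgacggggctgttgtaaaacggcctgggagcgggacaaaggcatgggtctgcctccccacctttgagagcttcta
Med13l: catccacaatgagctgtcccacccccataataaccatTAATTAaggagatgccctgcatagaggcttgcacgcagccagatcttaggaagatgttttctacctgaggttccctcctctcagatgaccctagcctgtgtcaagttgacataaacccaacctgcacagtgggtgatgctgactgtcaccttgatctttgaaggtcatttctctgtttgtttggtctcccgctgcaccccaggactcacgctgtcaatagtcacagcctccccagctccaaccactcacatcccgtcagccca
Nectin3: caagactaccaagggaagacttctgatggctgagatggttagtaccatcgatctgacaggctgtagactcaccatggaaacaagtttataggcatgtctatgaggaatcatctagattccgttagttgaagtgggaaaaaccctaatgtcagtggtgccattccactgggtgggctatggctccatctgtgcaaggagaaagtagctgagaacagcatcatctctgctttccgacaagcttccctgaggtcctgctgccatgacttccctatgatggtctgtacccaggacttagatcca
D230030E09Rik: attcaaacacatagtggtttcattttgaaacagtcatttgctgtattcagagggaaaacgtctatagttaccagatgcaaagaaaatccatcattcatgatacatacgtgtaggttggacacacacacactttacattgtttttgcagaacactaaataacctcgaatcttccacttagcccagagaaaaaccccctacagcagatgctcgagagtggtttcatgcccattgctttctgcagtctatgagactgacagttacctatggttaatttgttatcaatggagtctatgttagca
Hnrnpa2b1: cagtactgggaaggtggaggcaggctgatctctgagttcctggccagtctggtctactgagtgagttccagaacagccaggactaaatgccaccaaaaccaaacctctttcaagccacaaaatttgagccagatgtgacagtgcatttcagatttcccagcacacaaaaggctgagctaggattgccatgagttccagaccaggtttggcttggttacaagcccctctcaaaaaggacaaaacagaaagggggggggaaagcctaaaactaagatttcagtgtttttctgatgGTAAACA
Foxa2: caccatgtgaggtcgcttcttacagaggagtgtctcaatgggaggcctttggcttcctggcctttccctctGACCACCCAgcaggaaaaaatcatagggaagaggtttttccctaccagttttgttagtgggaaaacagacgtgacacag

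The Spata16, Nectin3 and D230030E09Rik centers held none of the 13 letter strings searched. Across the central 300 bases of all 1499 elements, the SOX letters ACAATGG were found in 4.20%, against 8.15% of 90996 other distal elements and 7.29% of all 107743 elements of at least 300 bp. The FOX letters were found in 2.735%, 5.40% and 4.92% of the same sets. The GC-rich letters of SP and KLF factors, GGGGCGGGG, went the other way, at 3.27% of broad distal and 1.755% of other distal elements, with 3.24% of all elements. GLI letters were present in 11 centers, or 0.734%, against 0.398% of other distal and 0.391% of all elements, but per 10 kb of the whole interval they were no denser, at 0.113 against 0.128 matches. The homeodomain letters stood in 6.14% of broad distal, 8.78% of other distal and 7.80% of all centers. Both strands were searched, and a match describes letters only.

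The intervals ran from 3001 to 8877 bp with quartiles of 3200, 3483 and 3984.5 bp. They were longer than 4000 bp in 366 cases and longer than 5000 bp in 93. Just inside the limit lay elements near Sdk2 and Pcdh17 at 3001 bp, with means of 37.9 and 1032 normalized counts in NMPs and 278 and 438 in day 6 pMN cells. Just outside it lay elements near Coa7 and Cbx8 at 3000 bp, at 170 and 2074 in NMPs and 98.9 and 1153 in day 6 pMN cells. No break in level marked the limit in these 4 elements.

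By the deposited annotation, 670 were intergenic, 646 intronic, 113 exonic, 44 at a transcription termination site (TTS) and 26 in a promoter-TSS class. In 20 of them the interval itself reached over the annotated TSS, and 247 (16.5%) contained the start of some GENCODE transcript, against 3.22% of the 94799 other distal elements. A protein-coding exon lay within 502 (33.5% against 10.3%) and the end of a protein-coding gene within 153 (10.2% against 0.892%). Longer intervals hold more annotated features by length alone. The median distance to the TSS was 21370 bp, against 43970 bp for other distal elements, and the median GC content was 49.7% against 47.2%.

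The elements lay nearest to 1311 genes, and 150 genes had at least 2 of them. Neighbors within 50000 bp formed 180 runs that held 408 elements, and 34 runs had at least 3. The longest runs held 5, one of them at Bcor on chromosome X, a gene for a transcriptional corepressor. The genes with most elements were Bcor with 6 and Chd7, a chromatin remodeler gene, and G530011O06Rik with 5 each. Among the runs of 4 were those at Ptch1, the Shh receptor gene, and at Pax6, a regulator of dorsal and intermediate progenitors. Other runs of 4 lay elsewhere, for example near Gse1, Nfix and Nr2f2. Chromosome 11 held the most elements (156, or 2.42% of its distal elements) and chromosome 16 the smallest share (0.960%).

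The widest element of all, 8877 bp (chr6:51451987-51460864), lay in an intron of Nfe2l3, and its nearest TSS was that of Hnrnpa2b1, an RNA-binding protein gene. Its NMP libraries read 1385, 1961 and 2139 normalized counts, and day 4 p0-1 libraries read 766 at the lowest, 886 at the median and 1070 at the highest. NMP and day 4 p0-1 did not overlap, and the log2 fold change was -1.03 (limma, adjusted p = 8.47e-05, SE 0.16). In p2, pMN and p3 the changes of -0.95, -0.88 and -0.75 stayed short of the 2-fold limit. The next widest, 8068 bp near Slc16a3 and 7879 bp near Rpl31, were annotated to the last exon of Csnk1d and to exon 17 of Tbc1d8. They stood at 643 ± 31.0 and 834 ± 89.3 (SD, n = 3) in NMPs and at 138 ± 14.3 and 224 ± 20.1 (SD, n = 4) in day 6 pMN cells. The Slc16a3 element fell after the NMP stage in p2, pMN and p3 (log2 -1.19, -1.23 and -1.18), and the Rpl31 element fell between day 4 and day 6 in the same types (-1.04, -1.28 and -1.001). Here and below, fold changes are ratios of mean normalized counts, and each SE is that of the difference between the variance-stabilized values that limma compared.

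The 3 elements with the smallest spread between conditions lay near Shf, in Cdyl and near Ech1. The element near Shf (chr2:122375481-122378863) had group means between 1811 and 2264 normalized counts, and the SD of its 25 condition means was 0.0895 on the log2-like variance-stabilized scale. The elements in Cdyl and near Ech1 had SDs of 0.0985 and 0.103. The widest Bcor element, 5051 bp, had means of 838 to 1076, and no comparison called it. The widest G530011O06Rik element, on chromosome Y, had means of 486 to 869 and was not called either. The widest Chd7 element read 179, 202, 208 and 222 in day 6 p3 and 86.4, 95.2, 114 and 115 in day 6 pMN cells. The Chd7 groups did not overlap, but the log2 difference of 0.98 stayed short of the 2-fold limit (limma, adjusted p = 0.000453). Over all broad distal elements the median SD between conditions was 0.437, against 0.600 for other distal elements, while the median SD between replicates was 0.228 against 0.315. The median of the ratio of the 2 SDs in each element was 1.88 and 1.87.

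The labels of the sorted types were checked in part, at the marker promoters analysed. No marker promoter of p0-1 was among them. For p2 and pMN the only one was that of Nkx6-1, also a p3 marker, so it did not tell p2 from pMN. Here as below, fewer cells of a type and less signal per cell cannot be told apart in such pooled cells. Accessibility at the promoter of T, the NMP marker, was 1175 in NMPs and 219 to 276 in the 4 day 4 types. At the Foxa2 promoter it was 1494 in NMPs, 1662 in day 6 p3 and 261 to 307 in the other 3 day 6 types, and at Nkx6-1 it was 1431 in day 6 p0-1 and 2431 to 2586 in the others. Nkx2-9, another p3 marker, stood at 1914 in day 6 p3 and 2091 in day 6 pMN cells, so it did not set p3 apart. The Pax6 promoter, the only NP marker promoter analysed, was at 1690 in NMPs and 2197 to 2993 in the day 4 types. At day 6 it was at 1696 in p3 and 3208 to 3889 in the others, so it did not tell day 6 p3 from NMPs. The promoters of Nkx1-2, Cdx2, Sox1, Dbx1, Dbx2, Irx3, Olig1, Olig2 and Nkx2-2 were not analysed here.

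Broad distal elements took a larger share of reads in NMPs than in any NP type. Summed over all 1499, they held 3.24% ± 0.0651 (SD, n = 3) of reads in NMPs, with libraries from 3.19 to 3.31%. At day 4 they held 2.78% in p0-1, 2.83% in p2, 2.85% in pMN and 2.70% in p3, and at day 6 2.57%, 2.57%, 2.64% and 2.43%. No NP library reached the lowest NMP library, and the highest of them was at 2.98%. The mean share was 0.686 percentage points higher in NMPs than in day 6 NPs, and 0.0892 among the elements farther than 10000 bp from a TSS. The median level per kb was 71.9 normalized counts in NMPs and 45.0 to 47.7 at day 4, whereas that of other distal elements was 21.3 and 35.3 to 38.1.

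**Figure D1:**
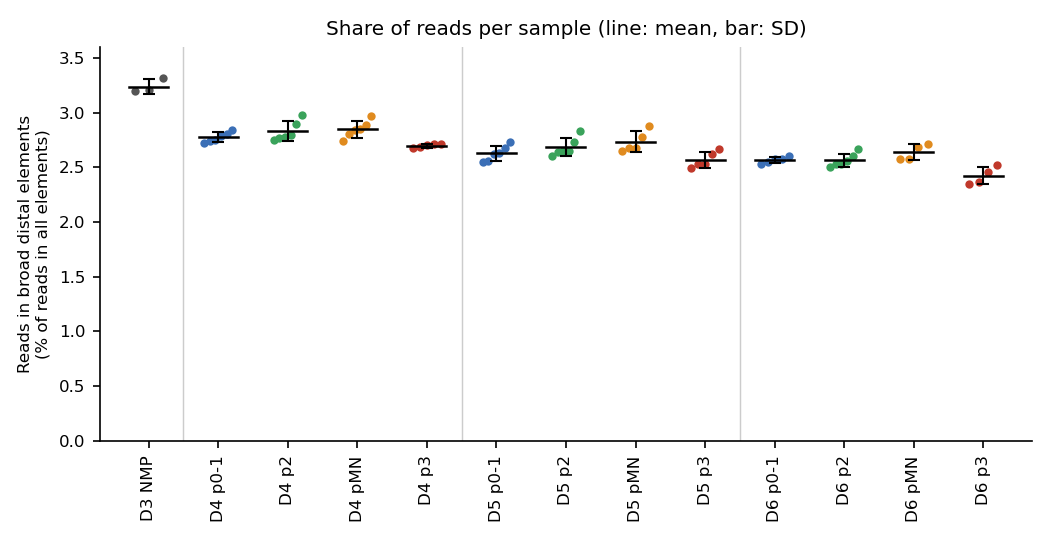
Percent of each library's reads that fell in the 1499 broad distal elements, by group (day and cell type), with points for libraries and bars for the mean and SD. The 3 NMP libraries lie between 3.19 and 3.31%, above every NP library, and day 6 p3 lies lowest at 2.35 to 2.52%.

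The NMP group was the highest of the 13 groups in 836 elements (55.8%), against 29.2% of other distal elements. By width the share was 20.4% up to 500 bp, 28.3% up to 1000 bp, 34.1% up to 2000 bp, 44.2% up to 3000 bp and 55.8% above. Width was set by peaks called on these libraries, so it is not independent of the levels compared. With no filter, the fold change from NMP to day 4 pMN was below 0 in 71.0% of broad distal elements and in 39.8% of other distal elements. Most promoters that mark other cell types also had lower means at day 4: the Pou5f1 promoter, the 1 pluripotency promoter of 17 genes with a value, was at 1108 to 1898 in NMPs and 59.0 to 149 at day 4. The summed promoters of mesoderm genes (5 of 21 with a value) were at 3421 to 4045 and 1423 to 3623, those of endoderm genes (5 of 11) at 4056 to 4633 and 1599 to 3742, and those of neural crest genes (3 of 8) at 2341 to 2527 and 1261 to 2383. Within the endoderm sum the Cer1 promoter went the other way, from 47.05 in NMPs to between 138 and 223 in the day 4 types. The Ets1 promoter of the neural crest sum changed little, from 988 to between 782 and 904. The part of these promoters in the result was not tested.

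**Figure D2:**
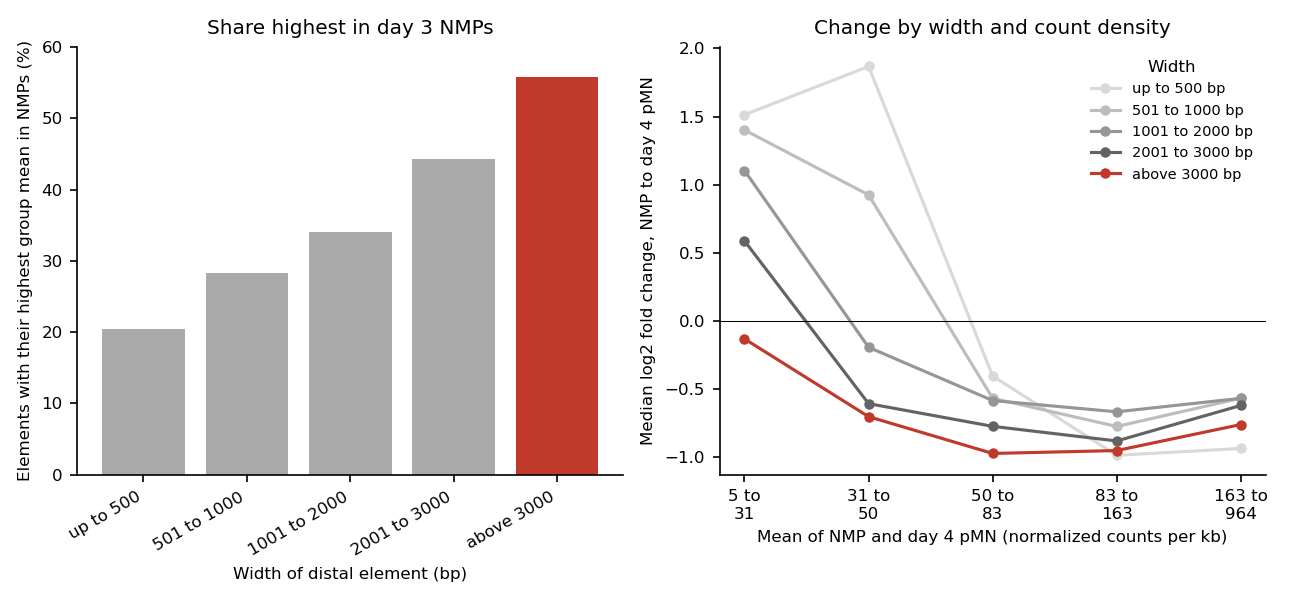
Distal elements by width, with bars for the percent of elements whose highest group mean was in day 3 NMPs (left) and lines for the median log2 fold change from NMP to day 4 pMN in 5 classes of accessibility per kb, the mean of both groups in normalized counts (right). The bars run from 20.4% at up to 500 bp to 55.8% above 3000 bp, and the line of elements above 3000 bp lies below 0 in all 5 classes, from -0.13 to -0.98.

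Width classes of like accessibility are set side by side in the plot by width, with no filter and no test. In the lowest class, at 4.83 to 31.1 normalized counts per kb, the median log2 fold change from NMP to day 4 pMN was -0.13 above 3000 bp and 1.51 up to 500 bp. In the middle class, at 50.2 to 83.0 per kb, the medians were -0.98 and -0.41, and in the highest class -0.76 and -0.94. Beside the elements up to 500 bp, the broad elements had the lower median in the lowest, the second and the middle class and not in the 2 densest. Beside the 3 widths above 500 and up to 3000 bp, they had the lower median in all 5 classes, from -0.76 against -0.57, -0.57 and -0.62 in the highest to -0.13 against 1.40, 1.10 and 0.59 in the lowest. The order was another among elements that passed the filter described below, which at like counts per kb is harder for short elements to pass. In 5 classes of the mean of all libraries per kb, the median of broad elements was -1.18 in the lowest class, at 12.3 to 30.45 per kb, and that of other distal elements -2.69. In the next 2 classes broad elements also fell less, at -0.98 against -1.65 and -0.76 against -1.09. In the 2 densest they lay below the others, at -0.75 against -0.50 and -0.03 against 1.46.

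The medians differed by gene structure, as a description with no test. In the 153 elements that spanned the end of a protein-coding gene, the median level per kb was 117 in NMPs and 53.1 to 58.9 at day 4, and the fold was below 0 in 86.9%. In the 997 without a protein-coding exon it was 60.2 in NMPs and 42.2 to 43.1 at day 4, with 65.8% below 0. The median log2 fold changes to pMN were -1.07 and -0.57.

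In the limma comparisons, 1328 of the 1499 elements passed the filter of a mean above 100 normalized counts in at least 1 of the 4 fits, and 171 did not. A call needed both more than a 2-fold change and an adjusted p under 0.01. At least 1 comparison called 804 (60.5% of those tested), 577 lower and 227 higher after the NMP stage. Over all elements tested, 54.6% were called, 29.7% lower and 25% higher, and over distal elements 72.3% were called, 32.9% lower and 39.4% higher. In p0-1, 434 fell and 159 rose (background 23.2% lower and 18.3% higher), and in p2 498 and 172 did (27.3% and 20.7%). In pMN, 487 fell and 171 rose (27.2% and 21.2%), and in p3 479 and 161 did (26.9% and 17.8%). Of the 1180 tested in all 4 types, 362 (30.7%) fell and 107 (9.07%) rose in all of them, against 21.7% and 13% of all elements so tested. The excess of losses did not hold past a 4-fold change: at a log2 fold change above 2 in either direction, 118 fell and 118 rose (background 8.74% and 20%). The 4 comparisons share the 3 NMP libraries, and an element that passed the filter only through its high group had to differ.

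**Figure D3:**
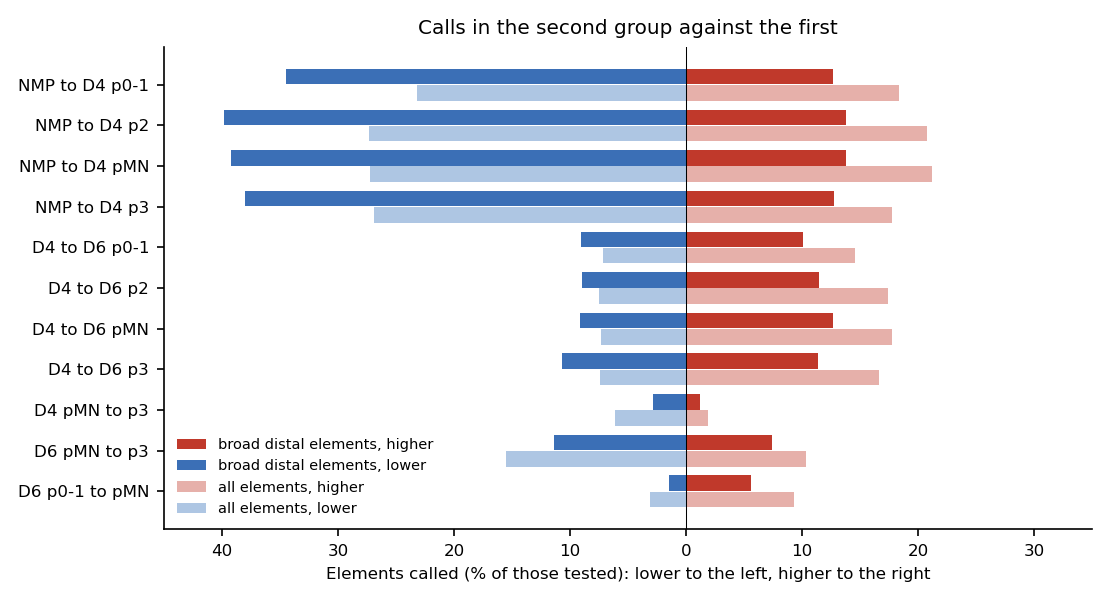
Broad distal elements called higher and lower in each comparison, as a percent of those tested, beside the same percents over all elements tested (pale). At the 2-fold limit lower calls outnumber higher calls after the NMP stage (577 and 227 elements), and p3 against pMN goes from 44 calls at day 4 to 195 at day 6.

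Among elements that rose in all 4 types, the largest mean gain lay in the first intron of Spata16 (chr3:26639157-26642251), a testis gene, 3073 bp from its start. The NMP libraries held 5.38, 10.8 and 17.0 normalized counts. At day 4 the pMN libraries held 635 at the lowest, 695 at the median and 768 at the highest, and the p3 libraries held 264, 312, 353, 370 and 379. No NP library came near the NMP level, and the log2 fold changes were 5.92 in pMN (limma, adjusted p = 5.03e-13) and 4.86 in p3 (3.14e-11). In p3 alone, the Galnt3, Lrig3 and Mgat5 elements rose by more, with log2 fold changes of 5.50, 5.49 and 5.29. The p3 libraries were also below every pMN library, at a log2 difference of -1.05 (1.81e-06), and by day 6 p3 had dropped to 156 ± 44.5 and pMN stood at 946 ± 128 (SD, n = 4 each).

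The next 3 gains by that mean lay near Galnt3, Lrig3 and Mgat5. An element over the last exon of Csrnp3, nearest to Galnt3, was at 40.0 ± 4.08 (SD, n = 3) in NMPs and rose to 1666 to 2159 in the 4 types. An element in an intron of Lrig3 rose from 28.6 to 1206 to 1311 at day 4 and then fell to 130 in p0-1, 161 in p2, 219 in pMN and 357 in p3 at day 6. The Mgat5 element, at -72028 bp from the start of a glycosyltransferase gene, rose from 5.61 to 168 to 239, and at day 6 p3 (874 ± 98.2) exceeded pMN (274 ± 64.6, SD, n = 4 each) by a log2 difference of 1.67 (limma, adjusted p = 2.94e-05).

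Among the losses, the Med13l element (chr5:118434802-118438255), at -124191 bp from the start of a Mediator kinase module gene, read 1375, 1387 and 1501 in NMPs. At day 4 its pMN libraries read 76.9 at the lowest, 87.1 at the median and 110 at the highest. The groups lay far apart, with a log2 fold change of -3.96 (limma, adjusted p = 5.63e-13, SE 0.12). The element in the promoter-TSS class at Dmtn, 2146 ± 190 in NMPs, fell to between 125 and 164 in the 4 types, and the element upstream of Lmnb1, a lamin gene, from 620 ± 141 to between 33.1 and 52.1 (SD, n = 3).

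Elements that fell and rose differed in where they lay. The 577 lower elements had a median distance to the TSS of 13560 bp and a GC content of 51.3%, and 16.8% spanned a protein-coding gene end. The 227 higher elements had 44550 bp, 46.85% and 3.08%. Per 10 kb, matches to the POU letters ATGCAAAT numbered 0.3815 in the lower and 1.27 in the higher elements, and to the homeodomain letters TAATTA 1.935 and 3.12. SP and KLF letters numbered 1.25 and 0.4435. The POU letters stood anywhere in 13.3% of the lower and 20.7% of the higher elements, a smaller gap than that of their density. For the homeodomain letters the shares were 44.0% and 58.15%, and for the SP and KLF letters 29.6% and 13.2%. The 2 sets were chosen by the contrast, so these are descriptions of base composition and letters.

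The NMP and posterior list had 28 genes, of which 6 were the nearest gene of a broad distal element, 1 each, and 4 of those elements fell and none rose. The background was 29.7% lower and 25% higher in at least 1 type, and among all broad distal elements tested 43.4% and 17.1%. Near Wnt8a, a Wnt ligand gene of the primitive streak region, accessibility was 1258, 1582 and 1698 in NMPs, and at day 4 the pMN libraries ran from 173 over a median of 215 to 242. The log2 fold change was -2.85 (limma, adjusted p = 2.81e-11). Elements near Grsf1 (668 to 58.3, RNA-binding protein), Fgf17 (640 to 205, an FGF ligand) and Gbx2 (1642 to 631, a posterior homeobox factor) also fell by more than 2-fold in all 4 types. The Grsf1 element was also the fourth largest mean loss among broad distal elements that fell in all 4 types. Elements near Lfng, a modulator of Notch, and Wnt5b, which was tested only in p2 and p3, were not called, with 500 and 119 in NMPs and 534 and 87.5 in day 4 pMN cells.

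The 4 elements of pluripotency genes (of 17 genes in the list) included 2 that fell, near Dppa3 (462 ± 74.4 to 149 ± 15.5) in all 4 types and near Klf5 (194 ± 87.1 to 92.3 ± 12.3) in p0-1 and pMN. Those near Nanog and Prdm14 were not called (background 29.7% lower in at least 1 type). The neural crest element over the last exon of Tfap2b fell from 1043 ± 89.6 to 280 ± 45.9 in pMN, and the endoderm element near Eomes from 1221 ± 117 to 471 ± 16.8 (SD, n = 3 NMP and 6 pMN libraries). The element near Gata4 and the 1 mesoderm element, near Pax9, were not called.

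The pan-neural list had 30 genes, 10 of them nearest to 15 broad distal elements, and 14 were tested. After the NMP stage 4 rose and 5 fell in at least 1 type (background 25% and 29.7%), and single genes held both directions. At Meis1, a homeobox cofactor with 4 elements, the element in intron 7 at 37061 bp rose from 31.3 ± 3.05 in NMPs to 568 ± 78.0 in day 4 pMN cells and 2400 ± 247 at day 6. The element in intron 2 at 4194 bp fell from 995 ± 176 to 378 ± 17.1. The log2 fold changes to day 4 pMN were 4.16 (limma, adjusted p = 1.24e-12) and -1.39 (2.21e-08). Meis2 showed the same split, a distal element 206580 bp away rising from 887 to 1896 and one in intron 2 falling from 1207 to 603.

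Near Pou3f1, a POU factor of the epiblast and early neural plate, accessibility fell from 467 ± 65.5 to 55.6 ± 7.15 in pMN (log2 -3.06, limma adjusted p = 8.70e-11). The element of 6089 bp in Sox2ot, 15750 bp from Sox2, was not called in any comparison, at 1277 in NMPs, 1352 in day 4 pMN and 1932 in day 6 pMN cells. The 6392 bp element near Zic1 fell from 811 ± 184 to 376 ± 23.8 in pMN (-1.10, 1.39e-06). An Nfix element at 15137 bp fell at every step, from 1194 in NMPs through 334 in day 4 pMN to 103 in day 6 pMN. The Meis1, Meis2, Pou3f1 and Nfix elements named beyond the widest of each gene were chosen after their values were seen.

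**Figure D4:**
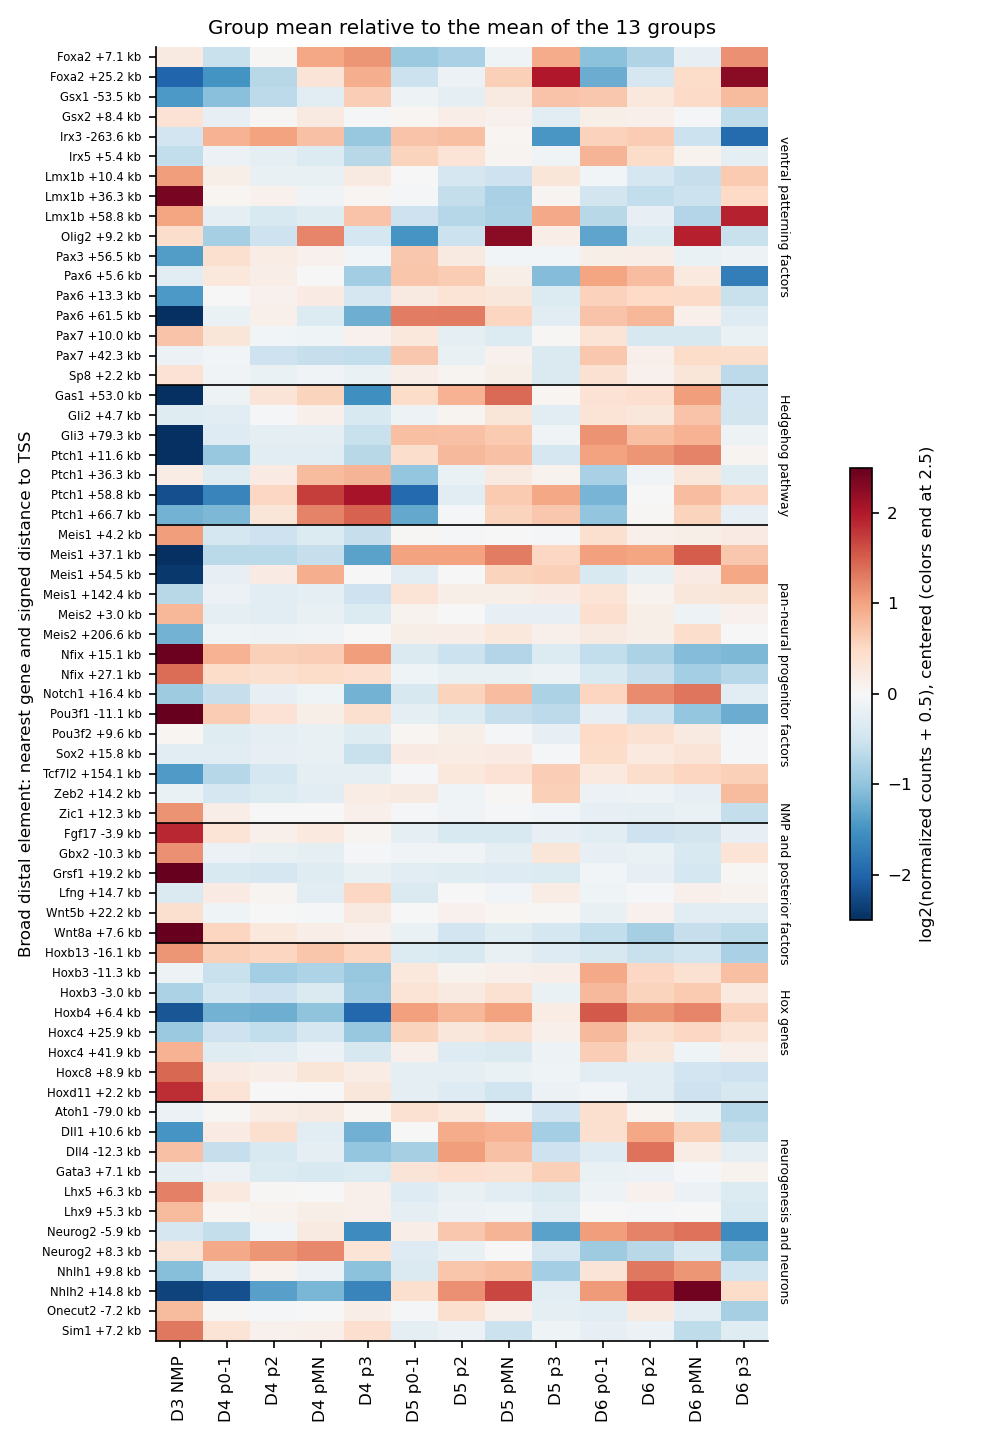
Broad distal elements reported from 6 gene lists (vertical axis) across the 13 groups (horizontal axis), as log2 of mean normalized counts plus 0.5, centered on the mean of the groups, with colors ending at 2.5 in either direction. The Wnt8a, Grsf1, Fgf17 and Gbx2 elements are highest in NMPs, and within the pan-neural, Hox and neurogenesis lists neighboring elements run in both directions.

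Of the 15 genes in the Hedgehog list, Ptch1 was nearest to 4 broad distal elements, and Gli2, Gli3 and Gas1 were nearest to 1 each. Ptch1 encodes the receptor that inhibits Smoothened, Gas1 a coreceptor, and Gli2 and Gli3 the transcription factors at the end of the pathway. After the NMP stage 5 of these elements rose in at least 1 type and none of them fell (background 25% and 29.7%). The widest Ptch1 element, 6919 bp (chr13:63503435-63510354), lay in intergenic DNA 58841 bp downstream of the start. It read 67.9, 78.2 and 116 in NMPs, and in day 4 p3 libraries 1238, 1502, 1818, 1825 and 1990. The day 4 p0-1 libraries, with 0 or 10 nM SAG, ran from 69.8 over a median of 119 to 220, the p2 libraries from 262 over 456 to 1257, and the pMN libraries from 905 over 1205 to 2002. The means followed the dorsal to ventral order of the types at day 4, and the types also differ in SAG. Within p0-1 the libraries ran from 69.8 to 87.8 at 0 nM and from 150 to 220 at 10 nM, and within p2 from 262 to 374 at 10 nM and from 537 to 1257 at 100 nM, so neither type overlapped between its concentrations. At 10 nM alone p2 was above every p0-1 library, whereas at 100 nM p2, pMN (905 to 1674) and p3 (1238 to 1818) overlapped in turn. Type and concentration cannot be told apart in the order of the pooled types. The p0-1 libraries overlapped those of NMPs, p2 overlapped pMN, and pMN overlapped p3.

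The log2 fold changes at this Ptch1 element were 0.54 in p0-1 (not called), 2.71 in p2, 3.93 in pMN and 4.25 in p3 (limma, adjusted p = 3.31e-10 in pMN). By day 6 it had fallen in p3 to 467, 594, 597 and 656, below every day 4 p3 library (log2 -1.53, 2.90e-06). A second intergenic element at 66664 bp (5261 bp wide) had the same order, from 162 ± 53.2 in NMPs to 1027 ± 127 in day 4 p3 and 321 ± 40.4 in day 6 p3. The element in intron 15 was at 409 in NMPs and 294, 418, 623 and 650 in day 4 p0-1, p2, pMN and p3, with no call at that step.

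The fourth Ptch1 element, in intron 2 (chr13:63551275-63556923), rose in all types. It went from 152 ± 27.0 in NMPs to 530 in p0-1, 849 in p2, 842 in pMN and 635 in p3 at day 4, and to 2073, 2213, 2416 and 1085 at day 6. At day 6 the p3 libraries stood below pMN, at 1085 ± 202 against 2416 ± 80.0 (SD, n = 4 each), a log2 difference of -1.15 (limma, adjusted p = 3.61e-05). The 3 Ptch1 elements other than the widest were chosen after their values were seen.

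The Gli3 element in intron 2 was at 101 ± 38.1 in NMPs (SD, n = 3). It rose to means of 676 to 850 in the day 4 types and at day 6 stood at 2162 in p0-1, 1666 in p2, 1826 in pMN and 917 in p3. The Gas1 element read 13.5, 33.9 and 64.6 in NMPs and rose to a lowest 488, median 573 and highest 640 in day 4 pMN cells (log2 3.93), with rises of 3.23 in p0-1 and 3.69 in p2. In day 4 p3, where the step was not tested, it read 101, 102, 123, 161 and 188. Day 4 p3 and pMN libraries of Gas1 did not overlap (log2 -2.09, limma adjusted p = 1.16e-07). The Gli2 element was not called after the NMP stage, and at day 6 p3 (662 ± 101) was below pMN (1486 ± 80.8, SD, n = 4 each) at a log2 difference of -1.17 (2.46e-05).

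**Figure D5:**
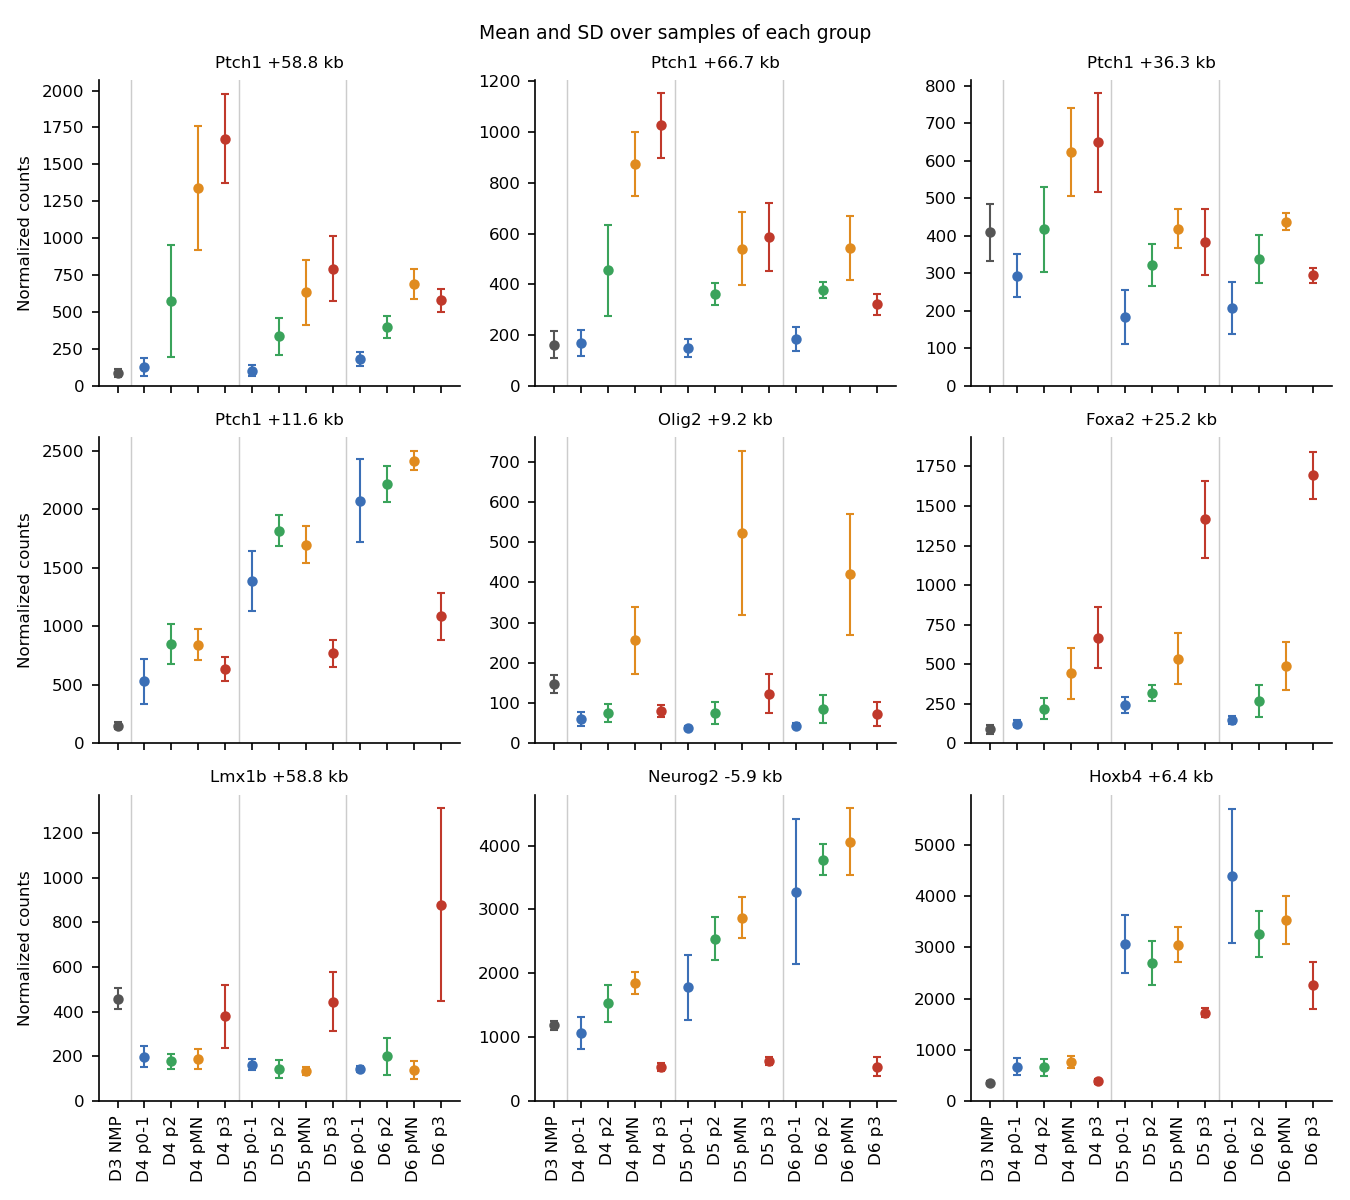
Mean normalized counts (vertical axes, bars for the SD) of 9 broad distal elements across day 3 (D3) to day 6 (D6), in NMP, p0-1, p2, pMN and p3, with titles giving the distance to the start of the named gene in kb. The widest Ptch1 element peaks at day 4 in pMN (1342) and p3 (1675), Olig2 is highest in pMN, Foxa2 and Lmx1b in day 6 p3, and Hoxb4 climbs in all 4 types.

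The list of ventral patterning factors had 25 genes, 11 of them nearest to 17 broad distal elements. At day 6, 15 were tested between p3 and pMN, 4 higher and 4 lower in p3. The higher were both Foxa2 elements and 2 of 3 Lmx1b elements, and the lower were the Olig2 element, 2 of 3 Pax6 elements and the Irx3 element. Foxa2 is a factor of the floor plate and early p3, Lmx1b a LIM homeodomain factor, and Pax6 and Irx3 are factors of progenitors dorsal to p3. Over all elements tested, 10.4% were higher and 15.5% lower in p3 at day 6.

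At Foxa2 the element 25185 bp downstream (chr2:148019790-148023778), which carries the GLI letters shown above, read 1475, 1717, 1782 and 1800 in day 6 p3 and 354, 380, 531 and 685 in pMN. The groups did not overlap, and p0-1 was lower still at 133 to 195. The log2 difference of p3 over pMN was 1.79 (limma, adjusted p = 4.19e-05, SE 0.19). At day 4 p3 and pMN overlapped, at 668 ± 192 (n = 5) and 442 ± 158 (SD, n = 6), with a difference of 0.60 that was not called (0.0769). The second Foxa2 element, at 7072 bp, behaved differently in NMPs, where it stood at 712 ± 38.2 against 1348 ± 272 in day 6 p3 and 300 to 532 in the other types.

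The Lmx1b element in intron 2 at 58824 bp (chr2:33580294-33584255) was open in NMPs at 405, 469 and 499. At day 4 it was at 275, 284, 311, 413 and 607 in p3, and at 150 to 259 in pMN. At day 6 the p3 libraries held 516, 533, 1065 and 1400 and the pMN libraries 109, 109, 144 and 192. The groups did not overlap at day 6, and the p3 libraries split by replicate, with both replicate 2 libraries at 516 and 533 and both replicate 3 libraries at 1065 and 1400. The log2 difference was 2.66 (limma, adjusted p = 0.000184). A second Lmx1b element, at 36269 bp in the same intron, fell from 372 ± 66.5 in NMPs to 67.2 to 76.3 in the 4 day 4 types.

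The Olig2 element, 5914 bp wide and 9237 bp downstream (chr16:91231830-91237744), was highest in pMN on each day. The day 6 libraries held 315, 321, 410 and 635 in pMN, 47.6, 50.8, 87.5 and 109 in p3, and 36.8, 39.7, 43.1, 46.5 and 53.0 in p0-1. No p3 or p0-1 library reached pMN, and p3 and p0-1 overlapped. The log2 differences were 3.25 for pMN over p0-1 (limma, adjusted p = 1.57e-05) and -2.50 for p3 over pMN (0.000121), in comparisons that share the 4 pMN libraries. NMPs held 124, 151 and 168, and their mean was above that of each NP group but pMN.

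At Pax6, the element in intron 7 rose from 764 ± 112 in NMPs to 2378 ± 77.6 in day 4 pMN and 1533 ± 118 in day 4 p3. The element in the promoter-TSS class at 5608 bp stood at 257 ± 62.2 in day 6 p3, and day 6 pMN held 1016 ± 227 (SD, n = 4 each), a log2 difference of -1.98 (limma, adjusted p = 3.00e-05). The Irx3 element lay at -263627 bp from the start. It rose in p0-1, p2 and pMN after the NMP stage by 1.34, 1.48 and 1.21 on the log2 scale and had a log2 fold change of -0.47 in p3, which was not called. The widest Pax7 element and the Sp8, Gsx2 and Irx5 elements were called in none of the comparisons of types at day 6. The second elements of Foxa2, Lmx1b and Pax6 and the Irx3 element were chosen after their values were seen.

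More broad distal elements were called between p3 and pMN at day 6 than at day 4. At day 4, 44 of 1094 tested were called (4.02%, background 7.99%), 13 higher and 31 lower in p3 (background 1.91% and 6.08%). At day 6, 195 of 1037 were called (18.8%, background 25.9%), 77 higher and 118 lower (background 10.4% and 15.5%). Of these calls 39.5% were higher, and over all elements 3490 calls were higher and 5231 lower. The 100 nM libraries alone gave 42 higher and 82 lower (background 6.38% and 11.2%). The 500 nM libraries alone gave 13 higher and 64 lower (background 2.4% and 6.19%), or 16.9% of the calls higher. Over all elements these libraries gave 810 higher and 2092 lower. The test of the change itself between the days called 108 of 1101 (9.81%, background 10.6%), 49 toward p3 and 59 toward pMN (background 4.53% and 6.09%), and 66 without the libraries of replicate 3. Over distal elements alone the backgrounds were 13.5%, 39.4% and 16.8%.

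The largest difference of p3 over pMN at day 6 lay in intron 1 of Nectin3, a cell adhesion gene (chr16:46477238-46480542). It read 442, 460, 1254 and 1480 in p3 and 26.9, 47.1, 65.7 and 95.8 in pMN. The groups were separate, and the p3 libraries again split by replicate, with replicate 2 at 442 and 460 and replicate 3 at 1254 and 1480. The log2 difference was 3.94 (limma, adjusted p = 0.000133, SE 0.45). NMPs held 6.46, 9.44 and 12.1, and day 4 p3 held 104, 121, 203, 206 and 214, both below every day 6 p3 library. Elements near D730050B12Rik (413 ± 75.2 against 32.7 ± 18.0), E330017L17Rik (393 ± 122 against 59.2 ± 19.6), Sipa1l2 and Hus1 followed, with log2 differences of 3.64, 2.72, 3.34 and 2.71.

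The Sipa1l2 and Hus1 elements were open in NMPs as well. Sipa1l2 read 204, 241 and 335 in NMPs, 48.6 at the lowest, 54.9 at the median and 63.9 at the highest in day 4 pMN, and 259, 405, 632 and 866 in day 6 p3. Hus1 read 266 ± 51.7 in NMPs, 67.4 ± 16.5 in day 4 pMN and 196 ± 66.4 in day 6 p3 (SD, n = 3, 6 and 4). Of the 77 elements higher in p3 at day 6, 50 were tested from NMP to day 4 pMN, and 17 of those (34.0%) had fallen there and 7 (14.0%) had risen. Of the 118 lower in p3, 102 were tested, and 8 (7.84%) had fallen and 50 (49.0%) had risen. Of broad elements not called between p3 and pMN, 783 were tested, and 33.6% had fallen and 13.5% had risen, nearly the shares of those higher in p3. Among other distal elements higher in p3, 743 of 3273 were tested, and 10.8% had fallen and 60.8% had risen, against 20.1% and 35.2% of those not called. An element low in day 4 pMN passes the filter on the mean only when it is high in NMPs, which favors a fall. The filter kept unlike parts of the broad and the other distal elements, so their shares are not like for like. The comparisons share no library, and no test of these shares was made.

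In the other direction, the element at -129798 bp from the start of D230030E09Rik (chr12:118657927-118662056) read 81.6, 104, 160 and 191 in day 6 p3 and 1270, 1280, 1482 and 1668 in pMN. The gap was larger than either spread (log2 -3.40, limma adjusted p = 5.87e-06, SE 0.23). At day 4 the difference was -1.99 with p3 at 242 ± 52.5 and pMN at 962 ± 84.0 (SD, n = 5 and 6). Elements in Chic2 (51.4 against 426), near Opa1 (317 against 2152) and in Emid1 (377 against 2494) were next, at -3.04, -2.76 and -2.72. At the Opa1 and Chic2 elements day 4 p3 stood at 318 and 35.4, and pMN rose from 846 and 102 at day 4 to the day 6 levels.

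The neurogenesis list held 41 genes, 12 of them nearest to 13 broad distal elements, and all 13 were tested at day 6, where 4 were lower in p3 and none higher (background 15.5% and 10.4%). They lay near Neurog2, Dll1, Nhlh1 and Nhlh2, a proneural factor, a Notch ligand and 2 factors of newborn neurons. The Neurog2 element at -5902 bp from the start (chr3:127625333-127629136) read 372, 505, 549 and 726 in day 6 p3 and 3523, 3725, 4375 and 4623 in pMN. The types did not overlap, and the log2 difference was -2.92 (limma, adjusted p = 4.50e-06, SE 0.18). It stood at 1185 ± 68.7 in NMPs, fell to 535 ± 64.7 in day 4 p3 and was at 1851 ± 174 in day 4 pMN, which was not called.

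The second Neurog2 element, 8310 bp downstream, took another course, and it was chosen after its values were seen. It was at 774 ± 40.2 in NMPs and 1423 ± 171 in day 4 pMN cells, a step that was not called, and it fell in all 4 types by day 6, to 334, 382, 474 and 302 in p0-1, p2, pMN and p3. The Nhlh2 element rose between the same days by 3.26, 3.13, 3.57 and 2.11 on the log2 scale, to 1580 ± 181 in pMN and 406 ± 91.9 in p3 (SD, n = 4 each).

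From day 4 to day 6 nearly as many broad distal elements lost accessibility as gained it at the 2-fold limit. Past a 4-fold change gains outnumbered losses, as they did over all elements. At least 1 type called 428 of 1226 tested (34.9%, background 38.7%), 221 higher and 208 lower, with 1 in both directions. The background was 27.2% higher and 11.7% lower, against 18.0% and 17.0% here. In p0-1, p2, pMN and p3, 111, 124, 136 and 126 rose (background 14.6, 17.4, 17.7 and 16.6%). In the same order, 99, 97, 98 and 118 fell (background 7.19, 7.45, 7.34 and 7.38%). Of the 1054 tested in at least 3 types, 93 (8.82%) rose and 73 (6.93%) fell in at least 3 of them, against 11.3% and 5.22% of all elements so tested. At a log2 fold change above 2 in either direction, 53 (4.32%) rose and 16 (1.31%) fell, both below the background of 13.7% and 3.38%. Of these calls 76.8% were higher, and over all elements tested 5299 rose and 1309 fell.

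Among elements that rose in at least 3 types, the largest mean gain, at -161665 bp from the start of 4931429L15Rik (chr9:46479986-46483317), went from 24.4 at the lowest, 39.3 at the median and 48.2 at the highest in day 4 pMN to 1607, 1647, 1697 and 1861 at day 6. In p3 it went from 28.4, 36.0, 44.7, 47.6 and 48.4 to 615, 774, 925 and 948. All day 6 libraries were above all day 4 libraries, with log2 fold changes of 5.44 in pMN (limma, adjusted p = 2.29e-11) and 4.30 in p3 (3.15e-08). Elements near Tanc2 and Stard13 rose to 2814 ± 179 and 894 ± 114 in pMN, and at day 6 p3 stood at 550 ± 191 and 154 ± 38.0 (SD, n = 4 each), the Stard13 step in p3 being untested. By the same measure the largest losses were the Lrig3 element and those near Eif3d, over the last exon of Cacng2 (246 to 40.5 in p0-1), and in Llgl2 (636 to 131 in pMN).

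Of 39 Hox genes, 6 were nearest to 8 broad distal elements. The element in the first intron of Hoxb3 and nearest Hoxb4 (chr11:96322025-96327345), 5320 bp wide, was at 345 ± 37.5 in NMPs and at 671, 653, 757 and 386 in day 4 p0-1, p2, pMN and p3. At day 6 it stood at 4396, 3262, 3535 and 2256, and the 4 p3 libraries ran from 1822 to 2688. The log2 fold changes from day 4 were 2.71, 2.32, 2.22 and 2.54 (limma, adjusted p = 8.39e-08 in p3). Both Hoxb3 elements rose in all 4 types too, and the Hoxc4 element at 25890 bp in p0-1, p2 and p3. The elements near Hoxc8 and at Hoxd11 fell from 800 ± 49.1 and 1144 ± 44.5 in NMPs to 363 ± 15.3 and 319 ± 49.3 in day 4 pMN, and the Hoxb13 element fell between day 4 and day 6 in p2, pMN and p3. The Hox and neurogenesis elements were picked from their lists after their values were seen.

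Fewer broad distal elements were called between pMN and p0-1 than between pMN and p3. At day 6, 72 of 1021 elements were called (7.05%, background 12.4%, distal elements 19.4%), 57 higher in pMN and 15 lower (background 9.3% and 3.07%). The call count was 30 without the libraries of replicate 2 and 34 without those of replicate 3, and the types also differ in SAG concentration, so type and concentration cannot be told apart. Beside Olig2, the element in an intron of Rab11fip4os1 stood at 1508 ± 470 in pMN and 213 ± 53.2 in p0-1 (log2 2.82), and the element near 4930524C18Rik at 253 ± 85.0 and 49.0 ± 7.22 (2.35; SD, n = 4 and 5). The element near Cpz, a carboxypeptidase gene, was lower in pMN, at 57.1, 60.1, 81.7 and 101 against 178, 200, 231, 420 and 485 (log2 -2.005, limma adjusted p = 0.00162). The Cpz groups did not overlap, and p3 was also above pMN at 261 ± 84.9. Elements near Gm20556 (231 against 816) and Gm15350 (58.9 against 184) were next.

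The same cell type from 2 SAG concentrations was compared at day 5, to ask whether a type depends on the concentration it came from. No broad distal element of 1196 tested was called in p0-1, p2, pMN or p3 by limma on variance-stabilized values (background 0.00251%) or by limma voom on the recovered reads. At an unadjusted p under 0.05 there were 149 in p0-1, 143 in p2, 23 in pMN and 6 in p3. The day 5 libraries pair by replicate number, and with the replicate as a block 13 were called (background 2.11%), 3 higher and 10 lower at the higher concentration (background 0.517% and 1.6%). Without replicate 3 and with no block, 13 were called as well. In p0-1 an element near Tigar (chr6:127119584-127124781) read 152, 173 and 209 at 0 nM and 418, 422 and 597 at 10 nM, a log2 change of 1.43 (limma with block, adjusted p = 3.47e-06). Another on the same chromosome, nearest 9330179D12Rik and in intron 3 of Ccnd2, a cyclin gene, rose from 122, 159 and 183 to 236, 322.5 and 474. In p2, 9 fell, with log2 changes from -1.24 to -1.004, among them elements near Camk2n1 and Dpysl5, and the Chac1 element rose. The single pMN call, in Sfi1, read 138, 143 and 887 at 100 nM and 116 and 165 at 500 nM, so the groups overlapped and 1 library stood apart, and p3 had none. Elements of this block result were named after their values were seen.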

How the data were processed

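Accessibility was measured by CaTS-ATAC in 67 libraries. Per the labels and the study's methods, the authors aligned reads to mm10 with nf-core/atacseq, called peaks with MACS, merged those found in at least 2 replicates, counted reads per consensus peak and annotated each peak to its nearest TSS with HOMER. Whether peaks were called as narrow or broad was not given in the sources used here, and that setting decides interval widths. The authors deposited values variance-stabilized by DESeq2, on a log2 scale, after division by size factors. Of 133549 annotated intervals, 21911 carried no values and were not used here. Inverting the transformation gave whole reads, with a largest deviation of 3.59e-11 below 1000 reads, and with them the depth of each library and the normalized counts printed here. The filter is on the mean over the samples compared, so a single group can hold few reads and still be tested. NMPs did so at Spata16, at 5.38 to 17.0 normalized counts, and counting error is larger there.

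Groups pooled libraries of 1 day and type over SAG. The log2-scale values were compared with limma 3.58.1 (R 4.3.3) with a variance trend, for elements whose mean over the samples compared passed 100 normalized counts. Benjamini-Hochberg adjustment ran over the whole set tested. A call needed a fold above 2 in mean normalized counts (pseudocount 0.5) beside an adjusted p under 0.01. Scripts in Python 3.11.15 with numpy 2.4.6 and pandas 2.3.3 did the rest, and the fits were tested on simulated data. The test of the p3 and pMN difference between days is an interaction term. Day 6 pMN and p3 hold only replicates 2 and 3, so the 4 libraries of each come from 2 replicate numbers at 2 SAG concentrations. Libraries that share a replicate number entered the main fits as separate samples, although they tended to deviate together. Each n therefore counts libraries, not independent differentiations. The p-values measure the spread between libraries of 1 cell line.

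Replicate numbers came from the titles. At day 5 all 71 pairs of samples with the same number deviated together (lowest correlation 0.103, median 0.315, others -0.178), so the block by replicate is given beside the SAG comparison. Such pairs correlated above 0.1 in 55 of 59 cases at day 6 (median 0.3997, others -0.324). At day 4 they did in 70 of 77 (median 0.380, others -0.180). For 15 samples the description gives another number.

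Elements were named as the 3 widest, the widest of each of the 3 genes with most elements, the 4 largest changes each way called in all 4 types after the NMP stage, the 5 largest each way between p3 and pMN and the 3 largest each way between p0-1 and pMN at day 6, the 3 largest each way called in at least 3 types between day 4 and day 6, the 3 with the smallest spread, the widest for up to 5 genes of each of 4 lists, and those nearest the width limit. Others were chosen after their values were seen. The elements and gene lists were chosen with earlier results of these data known. Lists were assigned by the nearest gene of the deposited annotation. Some elements of the lists are not reported here.

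Sequences and GENCODE features are from mm10. Letters searched on both strands were TGTTTAC (FOX), TGGGTGGTC (GLI), ACAATGG (SOX), ATGCAAAT (POU), CAGCTG (E-box), TAATTA (homeodomain), CCATAAA (CDX), AGGTGTGA (T-box), CTTTGAT (TCF/LEF), TGANTCA (AP-1), TTGGC and GCCAA set 5 bases apart (NFI), CCA, AG and GGC each set 2 bases apart (CTCF) and GGGGCGGGG (SP/KLF), and CTCF and E-box letters can overlap. In all elements of at least 300 bp, the central 300 bases held E-box letters in 21.0%, AP-1 in 9.61%, TCF/LEF in 5.02%, CTCF in 4.175%, CDX in 4.025%, POU in 2.28%, T-box in 1.065% and NFI in 0.0278%. In broad distal elements these were 19.75%, 8.14%, 4.54%, 3.07%, 3.87%, 1.67%, 1.67% and 0%.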

Additional observations from a re-analysis of the deposited data

Results flagged for a closer look

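Among 116 groups of 4 to 10 libraries checked at the named elements and for the share of reads, 6 (5.17%) had 1 library far from the others, and chance alone gives about 1 in 20. In day 6 pMN cells these were the Lrig3 element, at 172 in the 100 nM replicate 2 library against 230 to 242, the Emid1 element, at 2669 in the same library against 2426 to 2447, and the Chic2 element, at 314 in the 500 nM replicate 2 library against 454 to 474. The Tanc2 element stood at 299 in a day 4 p0-1 library (0 nM, replicate 1) against 129 to 193. The Llgl2 element stood at 194 in a day 6 p2 library (100 nM, replicate 3) against 124 to 144. The Lmnb1 element stood at 78.7 in a day 4 p3 library (100 nM, replicate 1) against 43.4 to 49.3.

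The difference of p3 from pMN changed between day 4 and day 6 at 16 of the 51 named elements tested, by the interaction test in limma. Of the 16, 8 are among the 10 elements named for the largest day 6 differences of p3 from pMN, a choice that favors a difference that grew, and the other 8 came from 41. In what follows the changes are given on the log2 scale with the adjusted p. It moved toward p3 at Nectin3 by 2.24 (0.00271), at Sipa1l2 by 1.95 (0.000641), at D730050B12Rik by 1.87 (0.0047), at Hus1 by 1.67 (0.00345), at Lmx1b by 1.65 (0.0057), at Mgat5 by 1.54 (0.000177) and at Chd7 by 1.10 (0.000278). The Mgat5 and Chd7 elements had differences of 0.13 and -0.12 at day 4, which became 1.67 and 0.98 at day 6.

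It moved toward pMN at Spata16 (-1.54, 3.48e-05), Chic2 (-1.53, 0.00017), D230030E09Rik (-1.41, 0.000397), Opa1 (-1.35, 0.00427), 4931429L15Rik (-1.15, 0.000894), Neurog2 (-1.13, 0.000197), Stard13 (-1.09, 0.000914), Rab11fip4os1 (-1.06, 0.00645) and Tanc2 (-1.03, 0.00614). The 4931429L15Rik element had a difference of 0.09 at day 4 and -1.06 at day 6. Day 4 and day 6 share no library.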

How the results depend on the processing

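Of 126 alternatives for the counts, the spread and the share of reads, 102 stayed within the limits set (1.5 times the count, or 1 SD) and 24 moved. A log2 fold change above 2 in either direction left 236 elements after the NMP stage (118 higher and 118 lower, against 227 and 577), 69 between day 4 and day 6 (53 higher and 16 lower, against 221 and 208), 2 and 48 between p3 and pMN at day 4 and day 6, 11 between p0-1 and pMN and 6 in the test between days. Between p3 and pMN at day 6, 124 were called with 100 nM libraries alone (42 higher), 77 with 500 nM alone (13 higher) and 11.7% of those wider than 4000 bp. Leaving out 1 replicate number gave 30 to 80 calls for p0-1 and pMN, 66 to 108 for the test between days (6.29% above 4000 bp wide) and 0 to 13 for SAG. For SAG, the replicate block gave 13 calls by the numbers of the titles and 13 by those of the descriptions. The replicate block, where same-numbered samples did not all deviate together, gave 199 calls for p3 and pMN and 82 for p0-1 and pMN at day 6, 120 between days, 804 after the NMP stage and 428 from day 4 to day 6, and no named element lost its call under it. The median spread (0.437) was 0.439 to 0.458 with 1 replicate left out, 0.393 above 4000 bp, 0.4485 beyond 10000 bp from a TSS and 0.4705 as log2 of counts plus 1. The read share of NMPs was 0.686 percentage points above day 6 NPs, 0.671 to 0.706 with 1 replicate left out, 0.4085 above 4000 bp, 0.0892 beyond 10000 bp, 0.615 without elements that reach over the TSS and 0.378 without any GENCODE start, the last chosen after seeing the data. The cause of these moves was not tested. With no filter on the mean, 920 and 560 elements were called in the 2 comparisons over time. The named elements gave 70 pairs of an element and a comparison, in which 1 element can count more than once. Over these pairs, 641 of 647 alternatives kept direction and call, and none reversed. The other 6 lost the call, 2 with 500 nM alone, 3 without replicate 2 and 1 without replicate 3. Where 2 libraries a condition remain, calls rest on few degrees of freedom.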
